A study of Mus musculus with 40 samples.

Results

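The genes described here encode the chains of the fibrillar collagens I, III and V: Col1a1, Col1a2, Col3a1, Col5a1, Col5a2 and Col5a3. They were taken by symbol from the deposited expression tables, and all 6 were among the 21204 genes tested. Gene expression was measured by bulk RNAseq in rib tissue of immature and mature mice, at baseline (BL) and then on day 0, 2, 5 or 14 after a piece of rib was resected (0dpr to 14dpr). The study asked how skeletal maturity and age bear on the repair of such a defect. All mice were Wild Type, with no further treatment, and the study used female mice. The labels give 7 weeks for the immature mice and more than 10 months for the mature mice. Baseline pieces were a composite of bone, bone marrow and intercostal muscle, and the pieces at 2, 5, and 14dpr are labelled as callus. The study's text places baseline before resection, whereas the labels place it after, and the former was used. Each group held n = 4 libraries except mature 5dpr (n = 3, replicate 2 not analysed here), which gave 39 libraries in 10 groups.

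The libraries held between 6075355 and 21546977 counts (median 9092201). The study's methods speak of individual biological samples in general, but the labels do not tie each library to a mouse, so that the spread and the p-values refer to these samples. Of the labelled tissue's defining markers, all 12 skeletal muscle genes and the osteoblast genes Sp7, Runx2 and Bglap had reads in every library, whereas the osteocyte genes Sost and Mepe were at 0 in some. In whole tissue, fewer cells of a type and less RNA per cell cannot be told apart. Libraries of immature 0dpr differed in makeup. By Col1a1, replicate 3 stood apart. Its Col1a1 level was 1594 CPM (counts set to a common library size with TMM factors), against 7903 to 11290 CPM in the other 3 libraries of the group. Its summed osteoblast and osteocyte markers (11 genes) reached 286.2 CPM against 799.2 to 1080 CPM, and its skeletal muscle markers reached 127700 CPM against 60860 to 112900 CPM. By marker levels, replicate 1 also differed, with erythroid markers of 3030 CPM against 12020 to 15840 CPM and skeletal muscle markers of 60860 CPM against 96030 to 127700 CPM in the other 3. Calls of the 6 genes that changed without either library are given beside the result.

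Fibrillar collagens are secreted as long triple helices that pack side by side into the fibrils that give connective tissue its strength. Collagen I, built from Col1a1 and Col1a2 chains, is the main protein of bone matrix. Collagen III, built from Col3a1 chains alone, is abundant in early repair tissue, muscle connective tissue and vessels. Collagen V, built from Col5a1 and Col5a2 chains and in some tissues also Col5a3, sits inside collagen I fibrils, where it starts fibril assembly and limits fibril width.

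In the GRCm38 build, Col1a1 lies on chromosome 11 at 94936224 to 94953042 and Col1a2 on chromosome 6 at 4504814 to 4541544. Col5a1 lies on chromosome 2 at 27886425 to 28039514, and Col5a3 on the minus strand of chromosome 9 at 20770050 to 20815067. Col3a1 (chromosome 1, plus strand, 45311538 to 45349706) and Col5a2 (minus strand, 45374321 to 45503282) are neighbours. They are placed tail to tail, with 24614 bases and 0 annotated genes between them. Predicted or RIKEN genes of the annotation overlap every span but that of Col1a1, and how strand was used in counting is not given in the sources used here.

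The sequences just upstream of Col3a1 and Col5a1 are shown as those of a collagen III and a collagen V gene that were both higher in immature mice at 0dpr. They are the 250 bases before each gene's start in the RefSeq table for GRCm38.p6, which held 4 of the 6 genes. The window of Col1a2 lies inside the span given above, as the annotations differ on its start, and is not shown. Capitals mark motifs, each searched on both strands. The first was the TATA box, spelled TATAAA here. The second was the CCAAT box, named for its letters. The last was the GC box, spelled GGGCGG.
Col3a1, chr1:45311288-45311537, plus strand: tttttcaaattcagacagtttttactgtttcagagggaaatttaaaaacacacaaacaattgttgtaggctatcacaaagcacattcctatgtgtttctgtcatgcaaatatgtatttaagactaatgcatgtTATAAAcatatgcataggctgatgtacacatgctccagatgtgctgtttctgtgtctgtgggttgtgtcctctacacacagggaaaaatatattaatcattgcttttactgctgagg
Col5a1, chr2:27886175-27886424, plus strand: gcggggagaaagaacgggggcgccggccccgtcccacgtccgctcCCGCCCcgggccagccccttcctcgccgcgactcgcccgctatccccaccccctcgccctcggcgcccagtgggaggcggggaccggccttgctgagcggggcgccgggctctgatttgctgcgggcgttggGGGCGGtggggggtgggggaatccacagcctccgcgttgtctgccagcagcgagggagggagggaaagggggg
The Col3a1 window held the TATA box once and neither of the others. The Col5a1 window held the GC box at 2 places and neither of the others. Of all 32851 windows in the table, 12.4% held the TATA box, 33.8% the CCAAT box and 32.7% the GC box. The G and C content was 35.2% upstream of Col3a1 and 76.4% upstream of Col5a1, with a median of 52.4% over the table. The Col5a3 window (62.8% G and C) held the GC box at 2 places and the CCAAT box. These matches describe letters and no binding was measured.

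Col3a1 covered the widest range of the 6 genes. In mature mice, its level was 1088, 675.3, 514.3 and 1252 CPM in the 4 baseline libraries and 924.2, 754.1, 897.9 and 1044 CPM at 0dpr. It reached 4611, 5124, 3952 and 4731 CPM at 2dpr. The baseline and 0dpr libraries overlapped, and every 2dpr library lay above them. It was 14720, 18700 and 15490 CPM at 5dpr and 28170, 19480, 20340 and 21030 CPM at 14dpr. Immature baseline libraries already had 3191, 2812, 4071 and 3071 CPM and the immature 0dpr libraries had 4834, 3752, 3472 and 3913 CPM. Those libraries all lay above the mature ones of the same stage and below all mature 5dpr libraries. Immature levels were 8075, 8155, 9207 and 7970 CPM at 2dpr, then 15830, 21330, 21720 and 15470 CPM at 5dpr and 22420, 14650, 21980 and 15320 CPM at 14dpr. From 5dpr on, the ages overlapped. The highest group mean (mature 14dpr, 22260 ± 3990 CPM, SD, n = 4) was 25.2 times the lowest (mature baseline, 882.4 ± 345 CPM, SD, n = 4). Ordered by mean, the ranges of neighbouring groups were apart at 3 of 9 steps: mature 0dpr below immature baseline, mature 2dpr below immature 2dpr, and immature 2dpr below mature 5dpr.

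**Figure D1:**
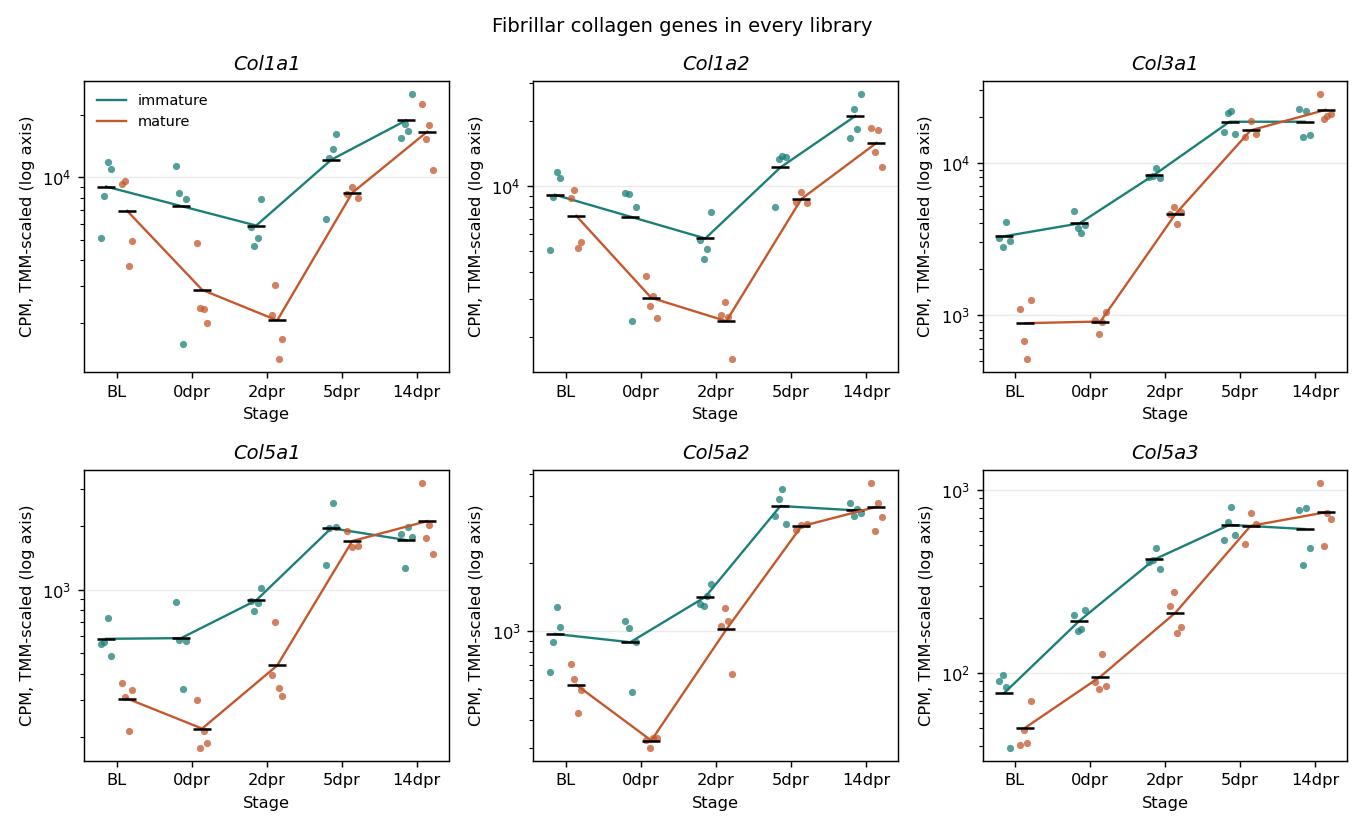
Level of each gene in every library, in TMM-scaled CPM on a log axis, by stage. Points are libraries (n = 4 per group, n = 3 for mature 5dpr), black bars are group means and lines join the means of each age. Col3a1 starts at 3286 CPM in immature and 882.4 CPM in mature mice at baseline, and the Col1a1 and Col1a2 means are lowest at 2dpr at both ages.

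Col1a1 and Col1a2 took a different course, with their lowest means at 2dpr and their highest at 14dpr at both ages. In mature mice, Col1a1 was 9342, 9617, 3763 and 4949 CPM at baseline, 4844, 2363, 2332 and 2012 CPM at 0dpr, and 2187, 3036, 1347 and 1669 CPM at 2dpr. It was then 8344, 8964 and 8009 CPM at 5dpr and 22440, 15220, 17780 and 10900 CPM at 14dpr. Every mature library at 5dpr and 14dpr lay above every one at 0dpr and 2dpr. In immature mice, Col1a1 was 5105, 8136, 11920 and 11010 CPM at baseline, 5806, 4688, 5110 and 7901 CPM at 2dpr, and 15470, 18000, 16710 and 25070 CPM at 14dpr. The immature 2dpr libraries overlapped the baseline range and all lay below 14dpr. Within groups the libraries spread widely, with a median coefficient of variation of 34.2% for Col1a1 against 15.7% for Col3a1, and ordered by mean the groups of Col1a1 overlapped their neighbours at all 9 steps. Col1a2 means went from 9074 CPM at baseline through 5697 CPM at 2dpr to 21070 CPM at 14dpr in immature mice, and from 7254 through 2358 to 15790 CPM in mature mice. Its ranges were apart at 1 step of the order, mature 0dpr below immature 2dpr.

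The collagen V genes had higher means at 5dpr than at 0dpr at both ages. Col5a2 means were 966.8, 887.9, 1416, 3607 and 3449 CPM from baseline to 14dpr in immature mice. In mature mice they were 572.7, 322.9, 1013, 2928 and 3578 CPM. The 4 mature libraries at 0dpr were close together, at 325.2, 300.3, 332.9 and 333.0 CPM, and lay below every other library of the series. Col5a1 was highest at 5dpr in immature mice (1952 ± 520 CPM, SD, n = 4) and at 14dpr in mature mice (2108 ± 755 CPM, SD, n = 4), and lowest at mature 0dpr (220.0 ± 55.4 CPM, SD, n = 4). Col5a3, the chain of restricted tissue distribution, had the lowest level. Per kb of transcript, its means ran from 8.204 CPM in mature baseline tissue to 123.5 CPM at mature 14dpr, whereas those of Col5a2 ran from 48.73 to 544.5 CPM and those of Col1a1 from 347.3 to 3172 CPM. Col5a3 was also higher at 0dpr than at baseline. It was 90.71, 97.0, 84.2 and 39.05 CPM at immature baseline and 207.3, 168.5, 174.5 and 220.5 CPM at immature 0dpr. In mature mice it was 40.56, 48.95, 41.5 and 69.78 CPM at baseline and 88.94, 81.46, 126.1 and 85.15 CPM at 0dpr. At each age, the baseline and 0dpr libraries did not overlap.

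Together, the 6 genes took 2.32 ± 0.673% of all counts at baseline and 6.64 ± 0.508% at 14dpr in immature mice (SD, n = 4). In mature mice they took 1.76 ± 0.712% at baseline, 0.643 ± 0.149% at 0dpr, 1.12 ± 0.167% at 2dpr and 6.22 ± 1.09% at 14dpr (SD, n = 4). At 5dpr, the share was 5.01 ± 0.911% in immature (SD, n = 4) and 3.88 ± 0.231% in mature mice (SD, n = 3).

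Immature and mature mice were compared at each stage to ask which chains differed with age before and after resection. All adjusted p-values are from edgeR's quasi-likelihood test with Benjamini-Hochberg adjustment over all genes, and a gene counts as changed at an adjusted p under 0.05. Members were higher in immature mice in each of the calls made. At baseline, 1 of 6 was called, against 0.585% of all genes (0.358% higher in immature mice): Col3a1 was 3.725-fold higher (log2 fold change 1.90 ± 0.22, SE, adjusted p = 7.81e-06). Col5a1 libraries did not overlap at baseline (486.8 to 731.8 CPM immature, 214.3 to 361.2 CPM mature), with an adjusted p of 0.0829. At 0dpr, 5 of 6 were called, against 0.726% of all genes (0.571% higher in immature mice). Col3a1 was 4.412-fold higher (log2 2.14 ± 0.222, SE, adjusted p = 4.77e-07), and Col5a2 2.75-fold (adjusted p = 0.000108), Col5a1 2.678-fold (adjusted p = 0.00245), Col1a2 2.379-fold (adjusted p = 0.0371) and Col5a3 2.018-fold (adjusted p = 0.0437). Col1a1 had a log2 difference of 1.34 ± 0.396 (SE) with an adjusted p of 0.104. Without immature 0dpr replicate 3, all 6 passed, Col1a1 with a log2 difference of 1.67 and an adjusted p of 0.00925. With only the compared groups in the fit, 0 of 6 and 0 of all genes were called at 0dpr, and Col3a1 had an adjusted p of 0.055.

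Deviations of same-numbered libraries of the ages from their group means had a mean correlation of 0.15 at 0dpr, but only the replicate number links these libraries. When the fit held a block for each replicate number, Col1a2 was no longer called there (adjusted p = 0.0728, or 0.0614 with the block at 0dpr alone), which left 4 of 6. Leaving out libraries one at a time, Col3a1, Col5a1 and Col5a2 were called in 8 of 8 fits at 0dpr. Col1a2 was called in 2 of 8, without immature replicate 3 or mature replicate 1, with adjusted p-values up to 0.153. Col5a3 was called in 3 of 8, with adjusted p-values up to 0.124, and lost the call without immature replicate 1 or 4 or mature replicate 1, 2 or 4. At 0dpr, the summed skeletal muscle markers ranged from 60860 to 127700 CPM in immature and from 69380 to 143800 CPM in mature mice. The osteoblast and osteocyte markers ranged from 286.2 to 1080 CPM in immature and from 329.3 to 514.9 CPM in mature mice, and the fibroblast and stromal markers (8 genes) from 3638 to 4920 and from 3235 to 3707 CPM. The part of these differences in the results was not tested beyond a muscle score as a covariate, with which 5 of 6 and 159 of all genes were called.

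At 2dpr, 2 of 6 were called, against 0.627% of all genes (0.457% higher in immature mice). Col1a2 was 5591, 4570, 5106 and 7522 CPM in immature and 2520, 2880, 2454 and 1576 CPM in mature mice, 2.417-fold higher in immature mice (adjusted p = 0.0401). Col3a1 was 1.814-fold higher (adjusted p = 0.049). The libraries of the ages did not overlap for any of the 6 genes at 2dpr. How common that was over all genes is not given here, so that it does not add to the calls. The 4 members not called had adjusted p-values of 0.0518 (Col5a1), 0.0554 (Col5a3), 0.061 (Col1a1) and 0.296 (Col5a2). These calls changed with single libraries. Without mature 2dpr replicate 2, which had the highest mature Col5a1 level (699.8 CPM against 313.4 to 395.3 CPM), 5 of 6 passed. Without immature replicate 1, 3 or 4 or mature replicate 1, 3 or 4, 0 of 6 passed, and without immature replicate 2, 1 of 6. With only the compared groups in the fit, 0 of 6 and 4 of all genes were called at 2dpr, and the lowest adjusted p of the members was 0.319. A fit that held the muscle score as a covariate called 4 of 6, and 270 of all genes against 133 in the main fit. Fibroblast and stromal markers at 2dpr ranged from 1484 to 1974 CPM in immature and from 1085 to 1415 CPM in mature mice. The tendon markers (5 genes) ranged from 409.4 to 523.7 CPM and from 157.1 to 412.4 CPM. The osteoblast and osteocyte markers ranged from 148.6 to 499.5 CPM and from 40.52 to 313.8 CPM. Of that list, 0 of 11 genes were called, with a median log2 difference of 1.38. The part of these lists was not tested. Of the fibroblast and stromal genes, Gsn had the highest median level over libraries (1240 CPM), and of the tendon genes Thbs4 (343 CPM). At 5dpr, 0 of 6 were called, against 0% of all genes, with 1081 genes at an unadjusted p under 0.05 and 33 genes called by DESeq2's Wald test. At 14dpr, 0 of 6 were called, against 0.00943% of all genes. The members' unadjusted p-values were at least 0.147 at 5dpr and at least 0.174 at 14dpr.

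**Figure D2:**
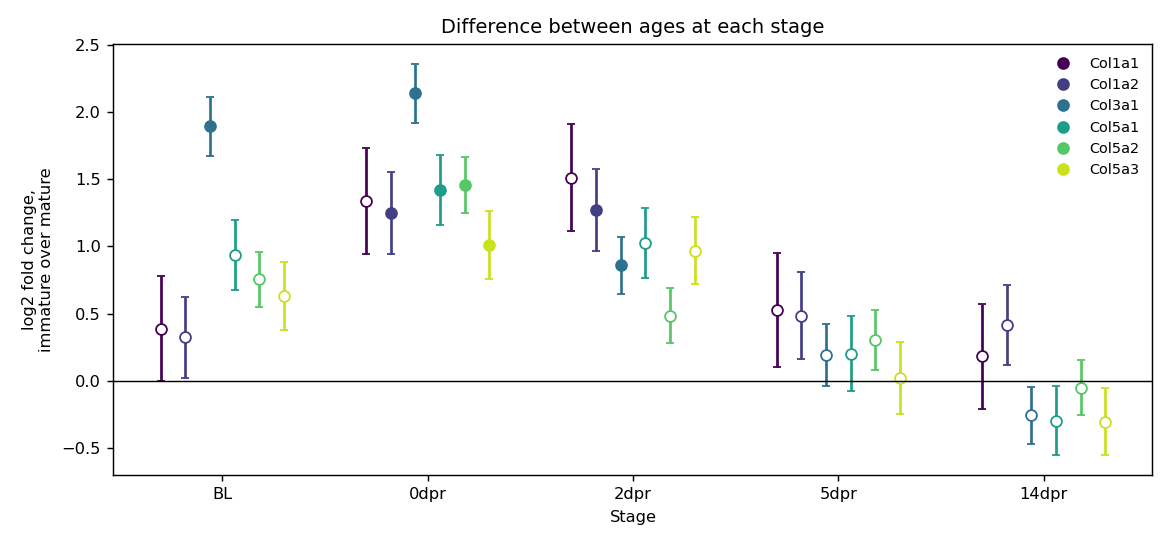
Log2 fold change of immature over mature mice at each stage for the 6 genes, with bars of 1 SE from the fit. Filled points have an adjusted p under 0.05. Col3a1 stands at 1.90 at baseline and 2.14 at 0dpr, and all filled points are at baseline, 0dpr or 2dpr.

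Consecutive stages were compared within each age to follow the chains through repair, and neighbouring comparisons share the libraries of a stage. From baseline to 0dpr in mature mice, 4 of 6 members changed, against 22.5% of all genes. The collagen I genes fell to 0.4174 of the baseline level for Col1a1 (adjusted p = 0.019) and 0.4166 for Col1a2 (adjusted p = 0.00271), and Col5a2 fell to 0.5637 (adjusted p = 0.00368). Col1a1 was called in 5 of 8 fits with a library left out, and lost the call without mature baseline replicate 1 or 2 or mature 0dpr replicate 3, with adjusted p-values up to 0.0826. Col5a3 rose 1.902-fold (adjusted p = 0.00743). In immature mice, 1 of 6 changed, against 10.6% of all genes, and it was again Col5a3, which rose 2.479-fold (adjusted p = 0.0018), and with an adjusted p of 0.00203 without immature 0dpr replicate 3. With only the compared groups in the fit, Col5a3 was not called in immature mice (adjusted p = 0.0638), which left 0 of 6. Over all genes, that fit called 48 in place of 2257. The difference between the ages in this step passed for 0 of 6, against 0.0141% of all genes, so that a fall of collagen I particular to mature mice was not shown. Beside these steps, the osteoblast and osteocyte markers went from 1029 to 1350 CPM at mature baseline to 329.3 to 514.9 CPM at 0dpr. The skeletal muscle markers went from 29920 to 62080 CPM to 69380 to 143800 CPM. With the muscle score as a covariate, 0 of 6 were called in the mature step, and calls over all genes went from 4775 to 385.

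From 0dpr to 2dpr, Col3a1 rose 5.088-fold in mature mice (log2 2.35 ± 0.224, SE, adjusted p = 8.27e-11) and 2.092-fold in immature mice (log2 1.06 ± 0.215, SE, adjusted p = 0.00011). Col5a2 rose 3.138-fold in mature and 1.594-fold in immature mice (adjusted p = 4.2e-08 and 0.00772). Without immature 0dpr replicate 3, the Col5a2 rise in immature mice had an adjusted p of 0.0647, whereas that of Col3a1 had one of 0.000968 and that of Col5a3 one of 0.00283. Col1a2 then had an adjusted p of 0.0453 for its fall in that step, and without immature 0dpr replicate 1 the rise of Col5a1 had one of 0.01. Col5a3 rose 2.236-fold and 2.167-fold (adjusted p = 0.000242 and 0.000421), and Col5a1 1.988-fold in mature mice (adjusted p = 0.00184), with an adjusted p of 0.0597 in immature mice. In all, 4 of 6 members changed in mature mice, against 47.6% of all genes, and 3 of 6 in immature mice, against 44% of all genes. Col1a1 and Col1a2 had adjusted p-values of 0.319 and 0.341 in mature and 0.545 and 0.382 in immature mice. Between these stages, the skeletal muscle markers dropped from at least 60860 CPM to at most 17890 CPM in every library, and the leukocyte markers (8 genes) rose from at most 730.4 CPM to at least 2084 CPM. With the muscle score as a covariate, 1 of 6 was called in mature and 0 of 6 in immature mice. Over all genes, calls with that score went from 10100 to 1381 in mature and from 9324 to 1602 in immature mice. The interaction passed for 0 of 6, against 0.0613% of all genes, and for Col3a1 it was -1.28 ± 0.302 on the log2 scale (SE, adjusted p = 0.115), which DESeq2's Wald test called among 111 of all genes. Without immature 0dpr replicate 3, it was -1.34 with an adjusted p of 0.0941.

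From 2dpr to 5dpr, all 6 members rose in mature mice, against 14.5% of all genes changed and 8.16% risen, by 2.89-fold (Col5a2) to 4.097-fold (Col1a1), with adjusted p-values of at most 0.000928. All 6 were called in each of the 7 fits with a library left out. In immature mice, 4 of 6 rose, against 8.05% of all genes changed and 4.37% risen. They were Col5a2 (2.548-fold, adjusted p = 4.26e-05), Col3a1 (2.225-fold, adjusted p = 0.000493), Col5a1 (2.196-fold, adjusted p = 0.00388) and Col1a2 (2.134-fold, adjusted p = 0.0186). Col1a1 was 2.069-fold higher with an adjusted p of 0.102, and Col5a3 had one of 0.125. Col1a2 was called in 5 of 8 fits with a library left out, and lost the call without immature 2dpr replicate 2 or 3 or immature 5dpr replicate 4, with adjusted p-values up to 0.075. With only the compared groups in the fit, 6 of 6 members were called at each age. That fit called 2988 of all genes in immature and 714 in mature mice. DESeq2's Wald test called 5 of 6 members in immature mice, and 2201 of all genes. Beside the mature step, the tendon markers went from 157.1 to 412.4 CPM at 2dpr to 719.2 to 1079 CPM at 5dpr and the fibroblast and stromal markers from 1085 to 1415 CPM to 2090 to 2592 CPM. Of these lists, 4 of 5 and 5 of 8 genes rose, as did 7 of 12 skeletal muscle genes. Their part was not tested beyond the muscle score as a covariate, with which 6 of 6 members were called in mature and 5 of 6 in immature mice. Over all genes, calls with that score went from 3084 to 1723 in mature and from 1707 to 1265 in immature mice. The interaction passed for 0 of 6, against 0% of all genes, with 1715 genes at an unadjusted p under 0.05 and 36 genes called by DESeq2. From 5dpr to 14dpr, 0 of 6 changed at either age, against 3.18% of all genes in immature and 4.18% in mature mice. The smallest adjusted p-values in this step were those of Col1a2, at 0.167 in immature and 0.141 in mature mice. The interaction of this step passed for 0 of 6, against 0% of all genes, with 901 genes at an unadjusted p under 0.05 and 5 called by DESeq2.

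Over the whole course, from baseline to 14dpr, all 6 members rose at both ages, against 31.4% of all genes changed and 16.4% risen in immature mice, and 33.5% changed and 17.1% risen in mature mice. In immature mice the rise was 7.873-fold for Col5a3, 5.658-fold for Col3a1, 3.568-fold for Col5a2, 2.932-fold for Col5a1, 2.321-fold for Col1a2 and 2.081-fold for Col1a1. The largest adjusted p among them was 0.0376, for Col1a1, which was called in 4 of 8 fits with a library left out. It lost the call without immature baseline replicate 2 or 3 or immature 14dpr replicate 2 or 4, with adjusted p-values up to 0.13. In mature mice the rise was 25.22-fold for Col3a1 (log2 4.66 ± 0.248, SE, adjusted p = 5.93e-16), 15.06-fold for Col5a3, 6.909-fold for Col5a1, 6.248-fold for Col5a2, 2.397-fold for Col1a1 and 2.176-fold for Col1a2. Col1a1 was called in 7 of 8 fits with a library left out, with an adjusted p of 0.0566 without mature baseline replicate 3. The chains of collagen I rose least at both ages, on the scale of fold change. Beside these rises, the skeletal muscle markers went from 53450 to 72560 CPM at baseline to 10850 to 18290 CPM at 14dpr in immature mice, with 12 of 12 genes fallen, and from 29920 to 62080 CPM to 12860 to 23840 CPM in mature mice, with 11 of 12 fallen. With the muscle score as a covariate, 3 of 6 were called in immature mice (Col3a1, Col5a2 and Col5a3), where the log2 change of Col1a1 was -0.03. In mature mice 4 of 6 were called, without Col1a1 (adjusted p = 0.342) and Col1a2 (adjusted p = 0.181). Over all genes, calls with that score went from 6667 to 1848 in immature and from 7113 to 4955 in mature mice. The chondrocyte markers went from 39.38 to 83.52 CPM at baseline to 623.3 to 2991 CPM at 14dpr in immature mice. In mature mice they went from 42.88 to 74.85 CPM to 128.1 to 2830 CPM, and 8 of 8 genes tested rose at each age. Of the tendon markers, 2 of 5 genes rose in immature and 5 of 5 in mature mice. The part of these 2 lists was not tested.

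The age by stage test of this change passed for 1 of 6, against 0.0472% of all genes. The log2 rise of Col3a1 was lower in immature than in mature mice by 2.16 ± 0.304 (SE, adjusted p = 0.000644). It was called under each of the alternative settings run and in 16 of 16 fits with a library left out. This test holds the same baseline libraries as the comparison of ages at baseline, in which Col3a1 was higher in immature mice, whereas at 14dpr Col3a1 means were 18590 ± 4180 CPM in immature and 22260 ± 3990 CPM in mature mice (SD, n = 4 each). The log2 difference in rise was -1.24 ± 0.364 for Col5a1 (adjusted p = 0.273), -0.94 ± 0.354 for Col5a3 (adjusted p = 0.469) and -0.81 ± 0.29 for Col5a2 (adjusted p = 0.442), each with its SE. At baseline, the fibroblast and stromal markers ranged from 2993 to 4128 CPM in immature and from 2358 to 3937 CPM in mature mice, and the tendon markers from 371.5 to 503 CPM and from 215.4 to 346.2 CPM. At 14dpr, the tendon markers ranged from 674.4 to 1167 CPM in immature and from 1077 to 2189 CPM in mature mice, and the osteoblast and osteocyte markers from 1135 to 2586 CPM and from 491.5 to 1049 CPM. Their part in the result was not tested.

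**Figure D3:**
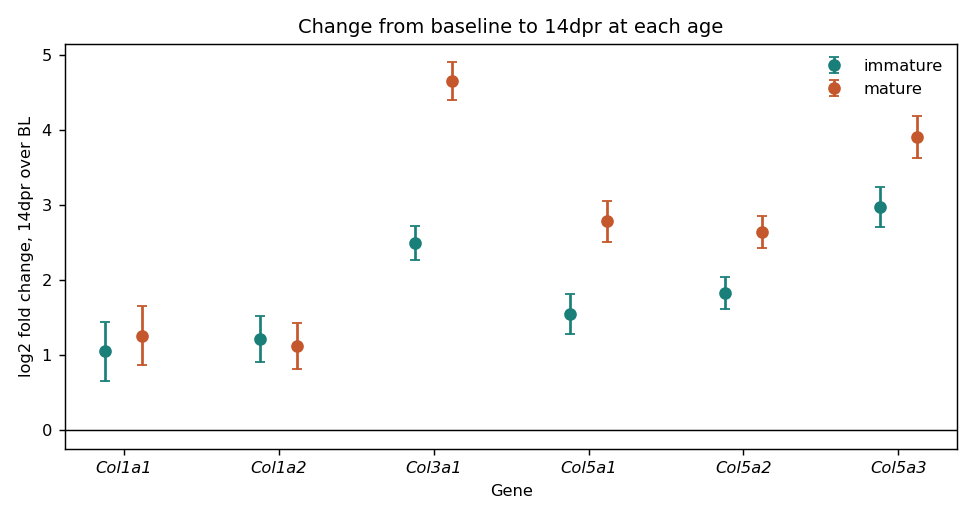
Log2 fold change from baseline to 14dpr in immature and mature mice, with bars of 1 SE from the fit. All points are above 0, and the ages are farthest apart for Col3a1, which reaches 4.66 in mature mice.

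Ratios within a library do not depend on its total count. The ratio of Col3a1 to Col1a1 reads was 0.625, 0.346, 0.342 and 0.279 at immature baseline and 0.116, 0.0702, 0.137 and 0.253 at mature baseline. The ages did not overlap, with a 2.92-fold higher ratio in immature mice (exact two-sided permutation test, p = 0.0286, adjusted p = 0.238 over 25 age tests). In mature mice the ratio then was 0.191, 0.319, 0.385 and 0.519 at 0dpr and 2.11, 1.69, 2.93 and 2.84 at 2dpr. Each 2dpr library lay above each 0dpr library, by 7.02-fold on average (exact permutation test, p = 0.0286, adjusted p = 0.163 over 40 stage tests). Per kb of transcript, the median ratio in mature mice was 0.135 at baseline, 2.63 at 2dpr and 1.35 at 14dpr. The immature medians of those stages were 0.366, 1.67 and 1.13. Immature 0dpr replicate 3 had a read ratio of 2.18, against 0.428 to 0.495 in the other 3 libraries of its group.

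The smallest p that these exact tests can give is 0.0286, with 4 against 4 as with 4 against 3 libraries. None of the 25 age tests or 40 stage tests passed the adjustment. A test at the smallest p could pass only if most tests of its family reached it too, so that the adjustment cannot decide on single ratios. Of the age tests, 3 reached that smallest p. The other two were at 2dpr, where Col5a1 to Col1a1 was 0.729 times and Col5a2 to Col5a1 0.672 times as high in immature as in mature mice. Of the stage tests, 7 reached it. Col5a3 to Col5a1 was 2.7-fold higher at 0dpr than at baseline in immature and 2.67-fold in mature mice, without overlap of the libraries. Col5a1 to Col1a1 went to 0.554 and 0.627 of its 5dpr value at 14dpr in immature and mature mice, and was 2.65-fold higher at 2dpr than at 0dpr in mature mice, as Col5a2 to Col5a1 was 1.58-fold. The ratio of the collagen I chains, Col1a2 to Col1a1, had group means between 0.972 and 1.22 and had no age or stage test at the smallest p, with the widest single values 0.789 and 1.82, both in mature mice.

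**Figure D4:**
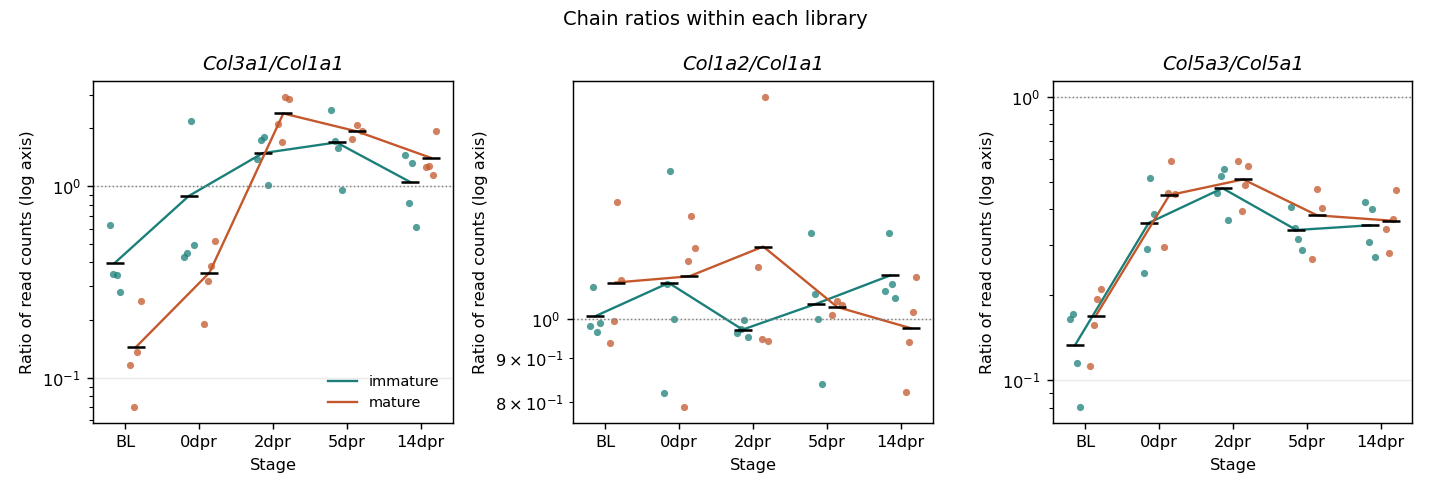
Ratio of read counts of 3 pairs of chains in every library, on a log axis, by stage and age. Points are libraries, black bars are group means and the dotted line marks a ratio of 1. Col3a1 to Col1a1 is under 1 in all baseline libraries, Col1a2 to Col1a1 stays near 1, and Col5a3 to Col5a1 is higher at 0dpr than at baseline at both ages.

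Across all 39 libraries, the levels of the members were compared with those of 16146 genes with a mean of at least 1 CPM, by Pearson's r of log2 CPM. These r values describe libraries that share stages and tissue makeup. Col1a1 and Col1a2 were each other's closest gene (r = 0.98, and 0.935 for deviations from group means). Next came Serpinf1, which encodes pigment epithelium-derived factor, at 0.927 and 0.956. Col3a1 was closest to Loxl2, a collagen crosslinking enzyme (r = 0.982), and Fstl1 (0.972), and its r with Col1a1 was 0.588 over all libraries and 0.275 for deviations from group means. Col5a1 was closest to Mrc2, an endocytic collagen receptor (0.978), and Col5a2 to Ppic and the collagenase Mmp14 (both 0.977). Col5a1 and Col5a2 had an r of 0.968. Col5a3 was closest to Fbn1, which encodes a microfibril protein (0.983), and Pxdn, a peroxidase of basement membranes (0.98), and its r with Col1a1 was 0.452. The neighbours on the chromosome, Col3a1 and Col5a2, had an r of 0.952 over all libraries and 0.493 for deviations from group means.

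Other genes of fibril building were taken from lists by role. At 0dpr, 7 of the 29 genes of collagen synthesis and processing were higher in immature mice and 0 lower, against 0.571% of all genes higher, with a median log2 difference of 0.58 over the list and -0.02 over all genes. They included the crosslinking enzymes Lox (log2 1.34, adjusted p = 2.87e-05) and Loxl2 (1.65, adjusted p = 0.000134), the procollagen N-propeptidase Adamts2 (0.91, adjusted p = 0.00184) and Pcolce, which enhances cleavage of the C-propeptide (0.68, adjusted p = 0.0143). Of 16 fibril-binding proteins, 5 were higher and 0 lower, among them Sparc (1.31, adjusted p = 0.000297), Postn (2.24, adjusted p = 0.000634), Kera (2.11, adjusted p = 0.00386) and Bgn (0.78, adjusted p = 0.0437). Of 9 fibril-associated collagens tested, 3 were higher (Col16a1, Col12a1 and Col14a1), and of the 5 other fibrillar collagens, 1 (Col11a1, log2 1.95, adjusted p = 0.0367). Of 8 breakdown genes, Mmp2 (1.03, adjusted p = 0.000721) and Mmp14 (1.07, adjusted p = 0.00184) were higher. Of 8 collagen receptors and 12 collagen-inducing signals, 0 were called in either direction. That is near the share over all genes, 0.726% in either direction. With only the compared groups in the fit, none of these list calls was made, as 0 of 21204 genes passed at 0dpr. The list counts were not recomputed without single libraries.

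At baseline, 2 of the 29 synthesis and processing genes were higher in immature mice, Loxl2 (log2 1.31, adjusted p = 0.00475) and Adamts2 (0.70, adjusted p = 0.0265), against 0.358% of all genes higher, as were 3 of 16 fibril-binding proteins (Postn, Kera and Lum) and 2 of 9 fibril-associated collagens (Col12a1 and Col16a1). At 2dpr, the synthesis and processing genes called were Pcolce (0.78, adjusted p = 0.00697) and Adamts2 (0.76, adjusted p = 0.0157), against 0.457% of all genes higher. Also higher were 1 of 12 inducing signals, Tgfb3 (0.85, adjusted p = 0.0232), 2 of 16 fibril-binding proteins, Kera (3.76, adjusted p = 0.00107) and Tnxb (1.01, adjusted p = 0.0379), 1 of 9 fibril-associated collagens, Col14a1 (0.82, adjusted p = 0.0455), and 1 of 8 breakdown genes, Mrc2 (0.79, adjusted p = 0.0447). At 5dpr and 14dpr, 0 genes of these lists differed between the ages, against 0% and 0.00943% of all genes. From baseline to 14dpr, 27 of the 29 synthesis and processing genes rose at each age, against 16.4% of all genes in immature and 17.1% in mature mice, with a median log2 change of 1.37 in immature and 1.68 in mature mice, against -0.04 and -0.03 over all genes. Of 16 fibril-binding proteins, 13 rose in immature and 15 in mature mice. In the age by stage test of that change, 1 of 29 synthesis and processing genes passed, against 0.0472% of all genes. It was Loxl2, the gene closest to Col3a1 across libraries, with a log2 rise lower in immature mice by 1.64 ± 0.329 (SE, adjusted p = 0.0357).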

How the data were processed

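Rib tissue of immature and mature mice at 5 stages was measured by bulk RNAseq. Reads were mapped to GRCm38 and counted by the authors with STAR 2.5.2a, per the labels, and the authors tested differential expression with DESeq2. Of the tools in the submitters' processing notes, edgeR and limma have no stated role. Count tables were deposited, raw and not normalized, for 48733 genes, and for the 21204 genes kept by the authors, with the same counts. The authors' normalized signal is CPM with TMM factors, and equals that recomputed here to a relative difference of 4.99e-15. The labels mention separate sequencing runs without naming libraries, so that runs were not tested.

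Filtered counts were fitted with edgeR 4.0.16 (R 4.3.3, limma 3.58.1), TMM factors and 1 coefficient per group over 39 libraries, by the quasi-likelihood test with Benjamini-Hochberg adjustment over all genes in each of 20 comparisons. Log2 CPM used a prior count of 2, and chain ratios added 0.5 to each count and were compared by exact permutation tests. Lengths are those of the longest principal transcript in GENCODE vM21. The method was tested on simulated counts. Libraries of a group differed by at least 3.25 times the counting variance, so that none was a copy of another's counts. This check cannot tell whether libraries came from separate mice. Named genes are the 6 members, the 5 genes most alike each member (of which the closest are printed), and up to 4 called genes of each list by smallest adjusted p, with the remaining ones named by symbol where counts were 5 or fewer. The members and lists were chosen with earlier results of these data known.

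Whether replicate numbers pair the libraries of the ages was checked by the correlation of deviations from group means. At 0dpr, all 4 pairs were above 0.1 (mean 0.15, lowest 0.109). The mean was 0.0181 at baseline, -0.0444 at 2dpr, 0.0123 at 5dpr (2 pairs) and 0.00194 at 14dpr. Libraries of the ages are linked by the replicate number alone, so that a pairing at 0dpr is not established. The alternatives were RLE size factors, DESeq2 1.42.0, other gene filters, a fit of the compared groups alone, the replicate block, a skeletal muscle score as covariate, 2 in place of 0.5 in ratios, other denominators of shares, and each library left out in turn. The block at 0dpr alone was chosen after seeing the data.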

Additional observations from a re-analysis of the deposited data

Results flagged for a closer look

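Of 99 sets of 4 values tested for 1 library far from the rest, 7 had one, where chance gives about 1 in 20. The Col1a1 level of mature 0dpr replicate 1 was 4844 CPM, against 2012 to 2363 CPM in the other 3 libraries. Col1a2 was 7999 CPM in immature 5dpr replicate 2, against 13330 to 13740 CPM. Col3a1 was 9207 CPM in immature 2dpr replicate 3, against 7970 to 8155 CPM, and Col5a3 was 126.1 CPM in mature 0dpr replicate 3, against 81.46 to 88.94 CPM. Among the ratios, Col3a1 to Col1a1 was 2.18 and Col5a1 to Col1a1 was 0.211 in immature 0dpr replicate 3, the library with the lowest Col1a1 level of its group. Col5a2 to Col5a1 was 1.63 in mature baseline replicate 4, against 1.95 to 2.01. The change of Col3a1 from baseline to 14dpr differed between the ages, with a log2 interaction of -2.16.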

How the results depend on the processing

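Numbers of members called out of 6 changed with these settings. With the skeletal muscle score as a covariate, they were 2 for age at baseline and 4 for age at 2dpr. For 2dpr against 0dpr they were 0 in immature and 1 in mature mice, and for immature 5dpr against 2dpr 5. For 14dpr against baseline they were 3 in immature and 4 in mature mice, and for mature 0dpr against baseline 0. Calls over all genes were, in that order, 65, 270, 1602, 1381, 1265, 1848, 4955 and 385. The main fit called 124, 133, 9324, 10100, 1707, 6667, 7113 and 4775. With that score, the sign turned for Col5a2, immature 2dpr minus 0dpr (-0.101), Col1a1, immature 14dpr minus BL (-0.0348) and Col5a1, mature 2dpr minus 0dpr (-0.0136). With only the groups compared in the fit, the members called were 2 for age at baseline, 0 at 0dpr and 0 at 2dpr. They were 0 for immature 0dpr against baseline, and 1 in immature and 2 in mature mice for 14dpr against 5dpr. Calls over all genes were, in that order, 471, 0, 4, 48, 1875 and 2589, against 124, 154, 133, 2257, 674 and 886 in the main fit. For immature 5dpr against 2dpr, the same setting called 6 members and 2988 of all genes, against 4 and 1707 in the main fit. DESeq2's Wald test called 3 members at baseline, 6 at 0dpr and 5 at 2dpr. It called 5 for immature 5dpr against 2dpr and 1 for the interaction from 0dpr to 2dpr. Over all genes it called, in that order, 334, 349, 428, 2201 and 111, against 124, 154, 133, 1707 and 13 in the main fit. With all genes of at least 1 count, 5 members were called at 2dpr. With the replicate block, 2 members were called for age at baseline, 4 at 0dpr and 3 at 2dpr, against 100, 122 and 140 of all genes. The libraries share only a number. Outside 0dpr, the changes with the block included the gain of Col5a1 at baseline and the loss of Col1a1 in immature 14dpr against baseline (adjusted p = 0.0571). For immature 2dpr against 0dpr, it called 4 members and 9178 of all genes, against 3 and 9324 in the main fit. With a library left out, the number of members called ranged from 1 to 2 at baseline, from 3 to 6 at 0dpr and from 0 to 5 at 2dpr. Of the summary results, 406 alternative values were rated the same, 12 stronger and 18 weaker. The first rating also covered small changes in the number called, small shifts of a library share, and ratio tests with 0 calls under every setting. The causes were not tested. Library totals limit single values less than the spread between libraries, and the low number of libraries limits the exact tests.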
